A study of Arabidopsis thaliana with 24 samples.

Results

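The genes described here are named immune receptor genes of Arabidopsis thaliana that encode nucleotide-binding, leucine-rich repeat (NLR) proteins. They were chosen by locus identifier from a list of 34 named genes. The rule itself uses no measured value, but the list was drawn up with earlier results of these data known. Of these, 21 had a row in the table of 20514 loci, and 13 of the 21 had a mean signal above the intensity filter that 12308 loci passed. The other 13 listed genes had no row in the table used here, among them RPP1, RPP4, RPP5, RPP8, CSA1, TAO1, RLM3, AT5G46520, AT5G66900, AT5G66910, AT4G19500 and AT1G31540.

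NLR proteins sit inside plant cells and recognise pathogen effectors, either by binding them or by watching host proteins that effectors attack. Sensor NLRs carry a coiled-coil (CC) or a Toll/interleukin-1 receptor (TIR) domain at the amino end, and helper NLRs with an RPW8-like domain, such as the ADR1 proteins, pass on the signal of many sensors. Activation leads to calcium influx, salicylic acid accumulation and often local cell death, and too much NLR protein can trigger defence without a pathogen, which stunts growth. NLR genes lie partly in tandem clusters and are among the most variable genes between Arabidopsis accessions.

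By these domains, as known from the literature, a type was given to part of the list only. Typed as CC were 10 genes, with 8 in the table and 5 above the filter. The 3 genes typed as RPW8 helpers, ADR1, ADR1-L1 and ADR1-L2, were all above the filter. Typed as TIR were 15 genes, with 8 in the table and 5 above the filter. To the remaining 6 genes no type was given, so the list may hold further helper or TIR genes. Of these 6, 2 were in the table, both below the filter. Neighbouring genes within 100 kb of each other in the RefSeq gene order were RPS4 with RRS1 and RFL1 with SUMM2. SNC1 lies near RPP4, RPP5 and RLM3, DAR4 near CSA1, RPS6 near AT5G46520, and AT4G19510 near AT4G19500, but in each of these groups only the gene named first had a row.

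Rosette leaves of the accessions Tsu-1 (stock CS1640) and Kas-1 (stock CS903) were sampled from single plants per pot under a short photoperiod, either in wet soil held near 90% of its water or after a stepwise drydown to about 50% on the fifth day. The labels name no pathogen treatment, mutant or transgene. Each of the 4 combinations had 6 arrays, which carry their group and title number as names here. Values are on the log2 scale, as deposited. The design text names 3 biological replicates per combination, and the labels do not say which arrays share a plant or an RNA preparation, so p-values rest on the spread among arrays, which may be technical in part.

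The median value of an array was 6.77 to 6.87. Within groups, correlations ran from 0.872 to 0.995 across the loci above the filter, and Kas-1 dry 4 and 5 were the closest pair (r = 0.9946, against 0.9854 for the next). Arrays 7 and 9 of Tsu-1 wet and arrays 1 and 2 of Kas-1 dry stood apart from their groups. Their limma array weights were 0.358, 0.314, 0.416 and 0.283 (1 is an average array). Where leaving these 4 arrays out changed a call given here for a receptor gene, both values are given, as for some values that moved. The differences of the genes that NLR proteins work with are given with all arrays only. Leaf markers were high in all groups, with the summed signal of the 2 mesophyll markers in the table, RCA and CA1, between 13.6 and 14.4 on the log2 scale. Averaged over the soils, 1 of these 2 was lower in Tsu-1 at a limma adjusted p under 0.05 (median difference of the 2 -0.29). Of all loci, 24.5% were lower. All 3 root and all 5 flower markers were below the filter, as were all 3 guard cell and both trichome markers. Of the vascular markers, the summed signal of 3 genes ran from 10.2 to 10.98 in Kas-1 wet, 10.4 to 10.9 in Kas-1 dry, 10.8 to 11.7 in Tsu-1 wet and 11.2 to 11.6 in Tsu-1 dry. The 2 vascular markers above the filter were both higher in Tsu-1 by the same test (median difference 0.66), as were 23.3% of all loci. The part of these marker differences in the NLR results was not tested. In bulk leaf RNA, fewer cells of a type and less RNA per cell cannot be told apart.

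**Figure D1:**
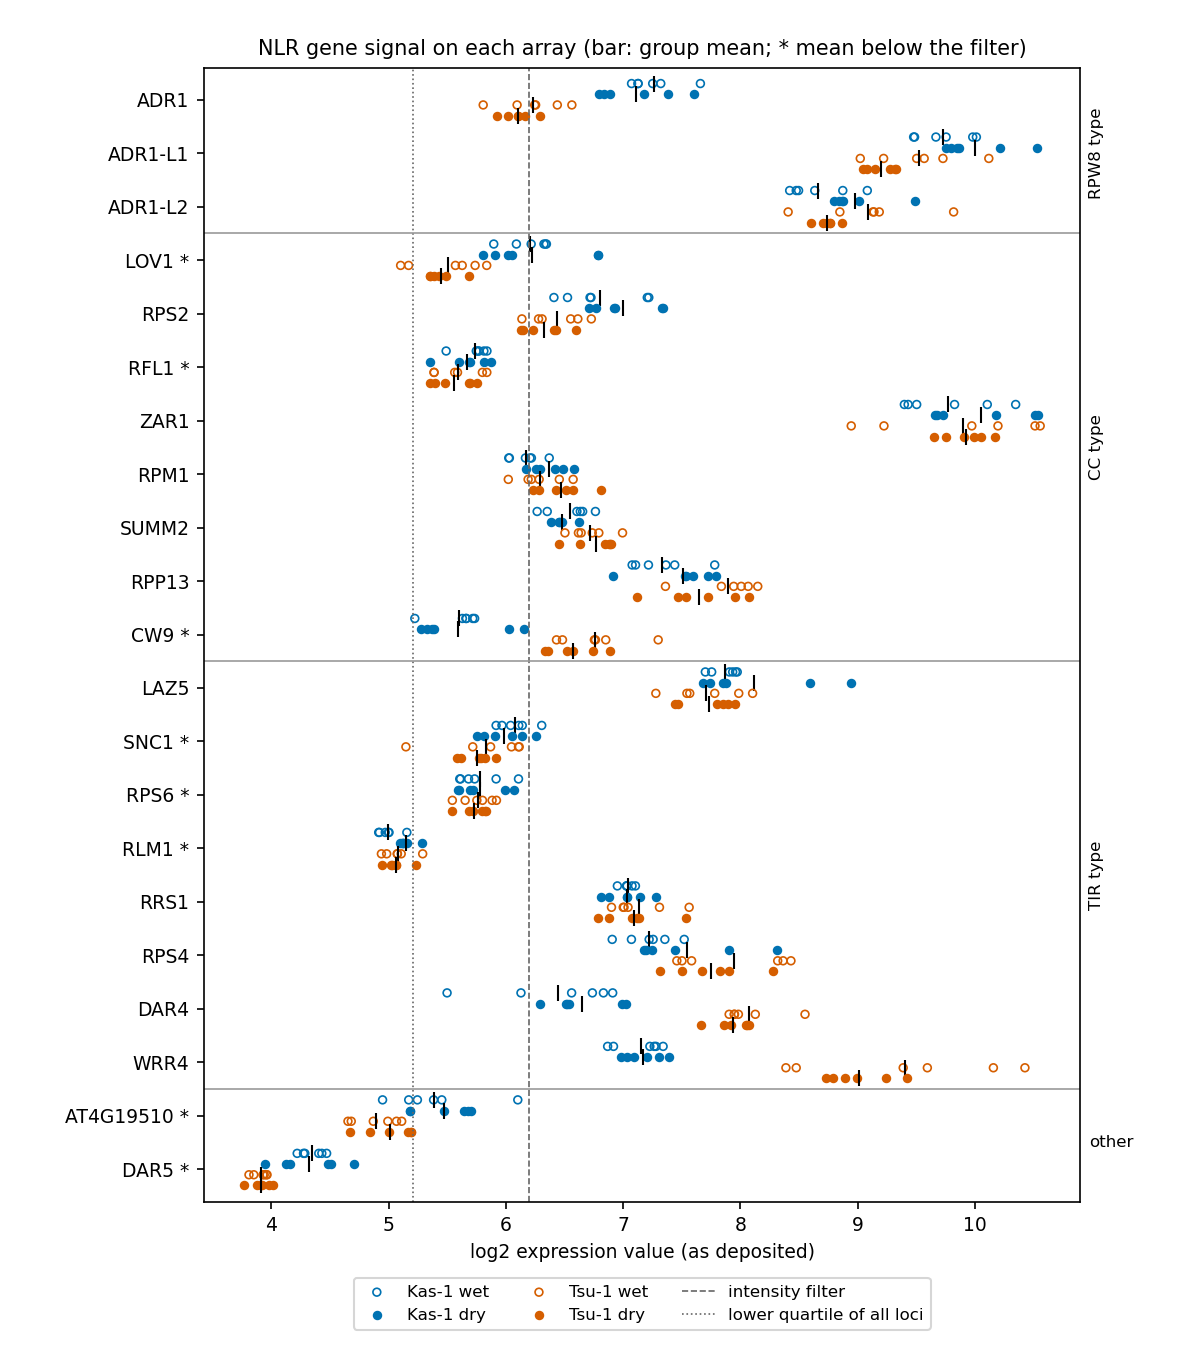
Each point is 1 array, with the deposited log2 value on the x axis and the 21 NLR genes in the table on the y axis, grouped by domain type and marked with an asterisk where the mean lies below the filter. Open circles are wet and filled circles dry soil, blue is Kas-1 and orange Tsu-1, and short bars are group means (n = 6 arrays). For WRR4, DAR4, ADR1 and CW9 the blue and orange points do not overlap.

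The first question was how the receptor genes differed between the accessions. Averaged over the soils, WRR4, DAR4, RPS4, RPP13 and SUMM2 were higher in Tsu-1, and ADR1, RPS2 and ADR1-L1 were higher in Kas-1. LAZ5, RPM1, ADR1-L2, RRS1 and ZAR1 did not pass the test. The called differences ran from 4.14-fold for WRR4 to 1.17-fold for SUMM2. Of the 13 tested genes 8, or 61.5%, were called at a limma adjusted p under 0.05, where 47.7% of the 12308 loci were called. Higher in Tsu-1 were 5 genes (23.3% of all loci) and lower 3 (24.5%). The median absolute log2 difference was 0.35 over the 13 genes and 0.20 over all loci. These counts are descriptions of the genes that passed the filter, among them ADR1, which passed it only through its Kas-1 arrays. Accession differences in transcript level and mismatches of probes to the sequence of an accession cannot be told apart on these arrays, and this holds for every Tsu-1 against Kas-1 value below.

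Of the 3 genes typed as helpers here, ADR1 and ADR1-L1 were lower in Tsu-1 and ADR1-L2 was not called. ADR1 encodes a helper NLR that acts with EDS1 and PAD4, and plants that overproduce it were described as more drought tolerant. Its signal (lowest, median and highest of 6 arrays) was 7.07, 7.19 and 7.66 in Kas-1 wet, 6.79, 7.04 and 7.61 in Kas-1 dry, 5.81, 6.25 and 6.56 in Tsu-1 wet, and 5.93, 6.10 and 6.29 in Tsu-1 dry. Every Tsu-1 array lay below every Kas-1 array. The difference of -1.02 (SE 0.10, limma adjusted p = 1.82e-08) made ADR1 2.03-fold lower in Tsu-1. It was -1.03 in wet and -1.01 in dry soil, and -1.16 and -0.82 without the 4 arrays that stood apart, called in each. The mean of the Tsu-1 arrays, 6.17, lay just below the filter, and ADR1 passed it through the Kas-1 arrays.

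ADR1-L1, the second helper, was also lower in Tsu-1. Its signal was 9.48, 9.71 and 10.0 in Kas-1 wet, 9.76, 9.86 and 10.5 in Kas-1 dry, 9.02, 9.54 and 10.1 in Tsu-1 wet, and 9.04, 9.21 and 9.33 in Tsu-1 dry. In dry soil the accessions did not overlap, whereas in wet soil they did. The share of all loci without overlap in dry soil was not counted, which also limits RPS2 below. The averaged difference was -0.50 (SE 0.11, limma adjusted p = 7.39e-04). It was -0.20 in wet soil (adjusted p = 0.339) and -0.80 in dry soil (adjusted p = 5.05e-04), and without the 4 arrays -0.35 (adjusted p = 0.0575) and -0.62 (adjusted p = 7.49e-04). The test of the difference between the soils is given with the drying responses.

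ADR1-L2, the third helper, had medians of 8.57 in Kas-1 wet, 8.87 in Kas-1 dry, 9.13 in Tsu-1 wet and 8.75 in Tsu-1 dry. Its averaged difference was 0.09 (SE 0.12, limma adjusted p = 0.55), with 0.42 in wet soil (adjusted p = 0.0562) and -0.24 in dry soil (adjusted p = 0.282). With those arrays left out these were 0.22 (adjusted p = 0.249) and -0.11 (adjusted p = 0.542). The 95% interval of the averaged difference ran from -0.15 to 0.33.

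Among the CC genes, RPS2 and RPM1 both guard the host protein RIN4, which had no row in the table used here. RPS2, the receptor for the bacterial effector AvrRpt2, had a signal of 6.41, 6.72 and 7.22 in Kas-1 wet, 6.71, 6.93 and 7.34 in Kas-1 dry, 6.14, 6.43 and 6.73 in Tsu-1 wet, and 6.13, 6.32 and 6.60 in Tsu-1 dry. The accessions overlapped in wet soil and did not in dry soil. RPS2 was lower in Tsu-1 by -0.52 (SE 0.10, limma adjusted p = 2.99e-04), by -0.36 in wet soil (adjusted p = 0.0625) and by -0.68 in dry soil (adjusted p = 0.00139). Its interaction, the drying response in Tsu-1 less that in Kas-1, was -0.31 (SE 0.21) and was not called (adjusted p = 0.924). RPM1, which senses changes of RIN4 caused by other effectors, differed by 0.11 (SE 0.07, adjusted p = 0.199), and its 4 group means lay between 6.17 and 6.47.

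The other CC genes above the filter were RPP13, ZAR1 and SUMM2. RPP13, a receptor for the downy mildew pathogen, was higher in Tsu-1 by 0.35 (SE 0.12, limma adjusted p = 0.0186), with 0.56 in wet soil (adjusted p = 0.0144) and 0.13 in dry soil (adjusted p = 0.594). Without the 4 arrays that stood apart, the wet soil value was 0.49 and was not called (adjusted p = 0.0686). The interaction of RPP13 was -0.43 (SE 0.24) and was not called (adjusted p = 0.862). ZAR1, which assembles into a wheel-shaped resistosome with pseudokinases of the ZED1 family, had an averaged difference of 0.00 (SE 0.17, adjusted p = 0.992), and its arrays spread widely, from 8.95 to 10.6 within Tsu-1 wet alone. SUMM2, which guards the MEKK1, MKK1/MKK2 and MPK4 kinase cascade, was higher in Tsu-1 by 0.23 (SE 0.07, adjusted p = 0.00756).

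**Figure D2:**
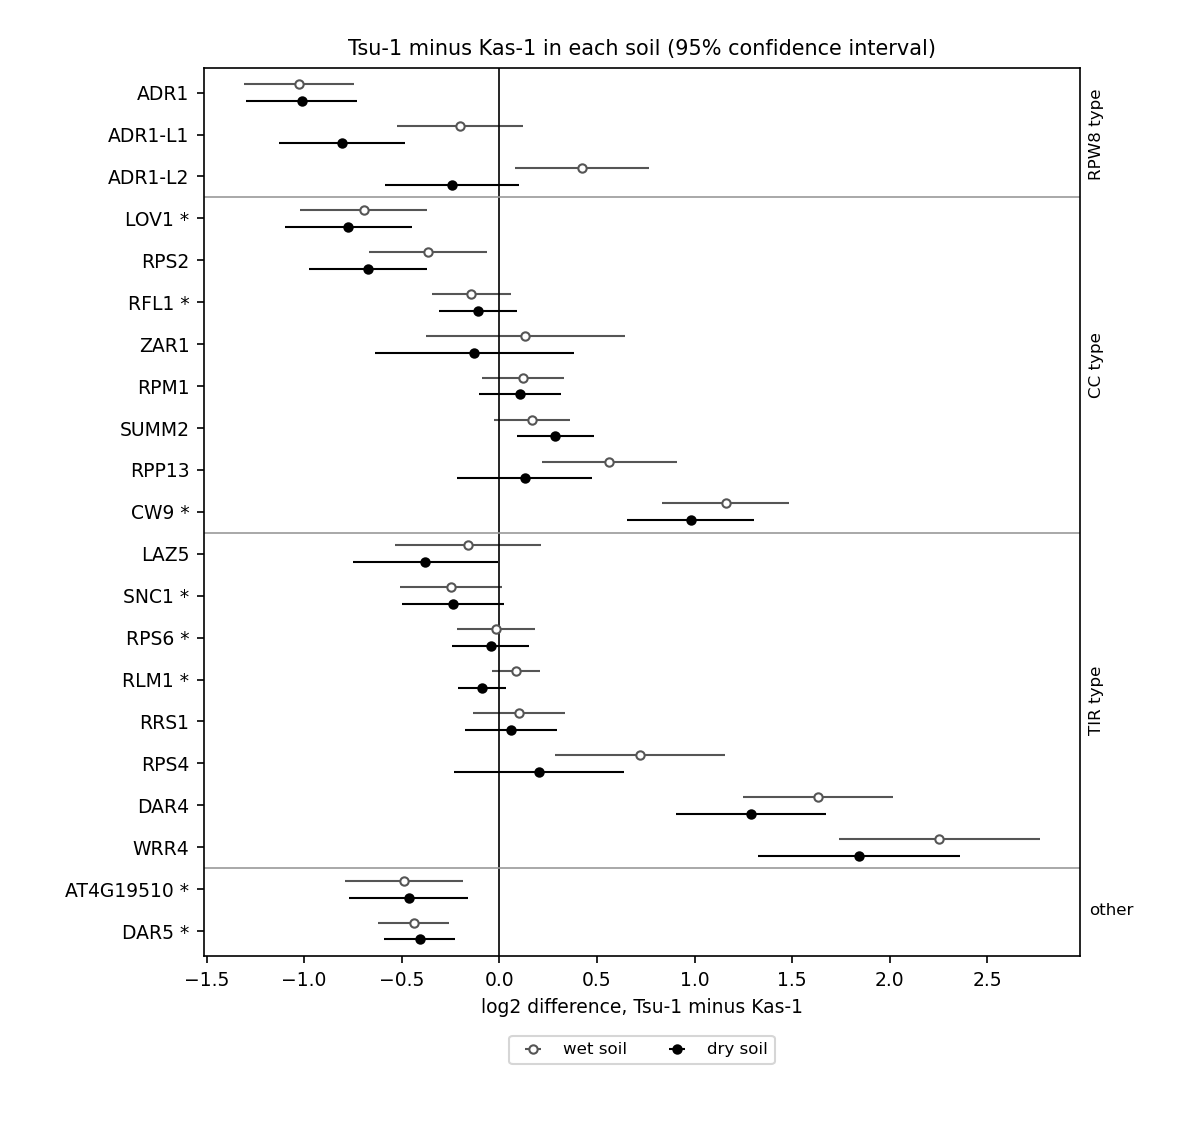
The x axis gives the log2 difference Tsu-1 minus Kas-1 in wet soil (open) and dry soil (filled) with the 95% confidence interval of the limma fit, and the y axis the 21 NLR genes, with an asterisk for genes below the filter, whose values come from the fit without a filter. WRR4 (2.26 wet, 1.84 dry), DAR4 (1.63, 1.29) and ADR1 (-1.03, -1.01) lie far from 0 in both soils, and ADR1-L2 lies on opposite sides of 0.

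The widest gap among the TIR genes was that of WRR4, which gives resistance to white blister rust. Its signal was 6.87, 7.25 and 7.34 in Kas-1 wet, 6.99, 7.15 and 7.40 in Kas-1 dry, 8.39, 9.49 and 10.4 in Tsu-1 wet, and 8.73, 8.94 and 9.42 in Tsu-1 dry. The lowest Tsu-1 array was about 1 log2 unit above the highest Kas-1 array. WRR4 was 4.14-fold higher in Tsu-1 (log2 difference 2.05, SE 0.18, limma adjusted p = 3.49e-09). Among the 13 tested genes this was the largest difference in either direction, and the arrays of Tsu-1 wet spread far more (SD 0.84) than those of the other groups (SD 0.16 to 0.27). Without the 4 arrays that stood apart the difference was 1.84 averaged over the soils, 1.81 in wet and 1.86 in dry soil, called in each.

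DAR4, also known as CHS3, joins a TIR NLR to a LIM domain, and a gain-of-function allele makes plants sensitive to chilling. Its signal was 5.50, 6.65 and 6.91 in Kas-1 wet, 6.29, 6.53 and 7.02 in Kas-1 dry, 7.90, 7.97 and 8.55 in Tsu-1 wet, and 7.67, 7.99 and 8.08 in Tsu-1 dry. All Tsu-1 arrays were above all Kas-1 arrays, and Kas-1 wet 7 was the lowest array of its group. DAR4 was 2.75-fold higher in Tsu-1 (log2 difference 1.46, SE 0.13, limma adjusted p = 6.88e-09). The DAR4 protein works as a pair with that of its neighbour CSA1.

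RPS4 and RRS1 are neighbours whose proteins form a sensor pair, in which RRS1 carries a WRKY domain as a decoy for bacterial effectors. RPS4 was higher in Tsu-1 by 0.46 (SE 0.15, limma adjusted p = 0.0136), with 0.72 in wet soil (adjusted p = 0.0133) and 0.20 in dry soil (adjusted p = 0.498). Its interaction was -0.52 (SE 0.30) and was not called (adjusted p = 0.868). RPS4 was called in both soils without the 4 arrays that stood apart, with 0.51 in wet (adjusted p = 0.0439) and 0.48 in dry soil (adjusted p = 0.0327). RRS1 differed by 0.08 (SE 0.08, adjusted p = 0.441), and its group means lay between 7.03 and 7.14. The difference between the accession effects of the neighbours was not tested. LAZ5, known from a screen for suppressors of runaway cell death, had a difference of -0.27 (SE 0.13, adjusted p = 0.084). Of 35 alternative fits, 3 called it, among them the fit without the 4 arrays that stood apart (-0.19, adjusted p = 0.0464). In wet soil LAZ5 was at -0.16 (adjusted p = 0.523) with all arrays and -0.33 (adjusted p = 0.0337) without the 4.

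The 12 Tsu-1 and 12 Kas-1 arrays did not overlap for 3 of the 13 tested genes, WRR4, DAR4 and ADR1, as for 4.21% of the loci above the filter. ADR1, which passed the filter only through its Kas-1 arrays, is part of this count and of the counts per soil. The wet and dry arrays are separate samples, so the accession difference can be read once in each soil. In wet soil 5 of the 13 genes were called (38.5%, against 30.1% of all loci), namely WRR4, DAR4, ADR1, RPS4 and RPP13. In dry soil 6 were called (46.2%, against 30.5%), namely WRR4, DAR4, ADR1, ADR1-L1, RPS2 and SUMM2. When the 4 arrays were left out, LAZ5 took the place of RPP13 in wet soil, and RPS4 was added in dry soil. The difference had the same sign in both soils for 11 of the 13 genes and for 80.8% of the loci above the filter. The exceptions were ADR1-L2 and ZAR1, neither of which was called in either soil.

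A further 8 genes in the table lay below the filter of 6.19 on the log2 scale, the 40th percentile of all loci, and are given by their levels. The genes on either side of the filter were RPM1 (mean 6.33) just above and CW9 (6.13) just below. CW9, a CC gene, had a signal of 5.22, 5.66 and 5.73 in Kas-1 wet, 5.28, 5.38 and 6.16 in Kas-1 dry, 6.43, 6.76 and 7.30 in Tsu-1 wet, and 6.34, 6.55 and 6.89 in Tsu-1 dry. All Tsu-1 arrays were above all Kas-1 arrays, so that 4 of the 21 genes in the table did not overlap between the accessions, as did 3.12% of all loci. LOV1, a CC gene that confers sensitivity to the fungal toxin victorin, went the other way. Its medians were 6.27 and 6.03 in Kas-1 wet and dry, and 5.60 and 5.41 in Tsu-1 wet and dry.

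Among the remaining genes below the filter, SNC1, whose gain-of-function allele causes constant defence and dwarfing, had group means from 5.75 in Tsu-1 dry to 6.08 in Kas-1 wet. RPS6, a receptor for the bacterial effector HopA1, had means from 5.73 to 5.78 in the 4 groups. RFL1, next to SUMM2, had means from 5.56 to 5.74. AT4G19510 had means of 5.39 and 5.48 in Kas-1 and 4.90 and 5.01 in Tsu-1, and DAR5 4.35 and 4.32 in Kas-1 and 3.91 in each soil in Tsu-1. RLM1, known for resistance to the blackleg fungus, had means from 4.995 to 5.15. AT4G19510, RLM1 and DAR5 were also below the lower quartile of all loci (5.21). In a fit with no filter 13 of the 21 genes (61.9%) were called, against 35% of all loci, and the added genes were CW9 (1.07, adjusted p = 8.29e-08), LOV1 (-0.73, adjusted p = 1.67e-05), DAR5 (-0.42, adjusted p = 1.09e-05), AT4G19510 (-0.48, adjusted p = 9.45e-04) and SNC1 (-0.24, adjusted p = 0.0388). SNC1 was at -0.14 and was not called without the 4 arrays that stood apart (adjusted p = 0.111).

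The genes that NLR proteins work with were followed in 3 lists. Chaperones and turnover factors keep NLR proteins folded and at a low level, and 8 of 11 listed genes were tested. Of these, 2 were higher and 1 lower in Tsu-1 and 5 were not called, where 23.3% of all loci were higher and 24.5% lower. The median difference was 0.05 against 0.00 for all loci. SGT1B, a co-chaperone needed by many NLRs, was lower in Tsu-1 (-0.39, SE 0.10, limma adjusted p = 0.00325). Its partner RAR1 differed by 0.02 (SE 0.06, adjusted p = 0.831). HSP90.2, the chaperone to which both bind, was higher in Tsu-1 (0.62, SE 0.17, adjusted p = 0.0041), as was AT1G14200 (0.69, adjusted p = 0.0269).

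Of the guarded proteins and adaptors, 11 of 13 listed genes were tested. In Tsu-1 1 was higher, 3 were lower and 7 were not called, with a median difference of 0.13, and the 4 called of 11 lie below the 47.7% of all loci. The 3 lower genes, for which 24.5% is the share of all loci, belong to the kinase cascade that SUMM2 guards. They were MKK1 (-0.70, SE 0.11, limma adjusted p = 2.83e-05), MPK4 (-0.56, SE 0.08, adjusted p = 5.72e-06) and MKK2 (-0.40, SE 0.08, adjusted p = 2.6e-04). MEKK1, at the head of the cascade, differed by 0.13 (SE 0.18, adjusted p = 0.565), and CRCK3, a kinase that SUMM2 monitors, by 0.05 (SE 0.11, adjusted p = 0.716). SUMM2 itself was higher in Tsu-1, as given above. Of the partners of ZAR1, the pseudokinase gene ZED1 was higher in Tsu-1 by 0.30 (SE 0.07, adjusted p = 0.00127), whereas PBL2, whose product is the decoy for the effector AvrAC, differed by 0.40 and was not called (adjusted p = 0.0921). RKS1, another listed partner, lay below the filter. Without a filter it was higher in Tsu-1 by 0.31 (SE 0.08, adjusted p = 0.00497).

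Of the genes that act after NLRs, 8 of 16 listed genes were tested, and 1 was higher, 5 were lower and 2 were not called, against 23.3% higher and 24.5% lower among all loci. The median difference was -0.40. EDS1, the hub through which TIR receptors signal, differed by -0.27 (SE 0.13, limma adjusted p = 0.0867). SAG101, one of its partners, differed by 0.15 (SE 0.14, adjusted p = 0.393). The other partner, PAD4, lay below the filter, and without a filter it differed by -0.35 (adjusted p = 0.0909). PAD4 differed by 0.04 in wet soil (adjusted p = 0.918) and by -0.73 in dry soil, where it was called (adjusted p = 0.0202). Its interaction was not called (adjusted p = 0.818). NDR1, which several CC receptors need, had no row in the table used here. The genes with the widest gaps were the salicylic acid outputs PR2 (-3.08, SE 0.23, adjusted p = 2.94e-10), PR1 (-2.67, SE 0.37, adjusted p = 3.72e-06) and PR5 (-1.62, SE 0.25, adjusted p = 1.82e-05), all lower in Tsu-1. In the opposite direction, CBP60G, a transcription factor gene of salicylic acid synthesis, was higher in Tsu-1 by 0.997 (SE 0.21, adjusted p = 4.36e-04), while ICS1, the synthesis enzyme gene, was lower (-0.52, adjusted p = 0.00971). CBP60G and the other partner genes with a difference under 1 (log2) that are not among the fixed names were chosen for naming after their values were seen.

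**Figure D3:**
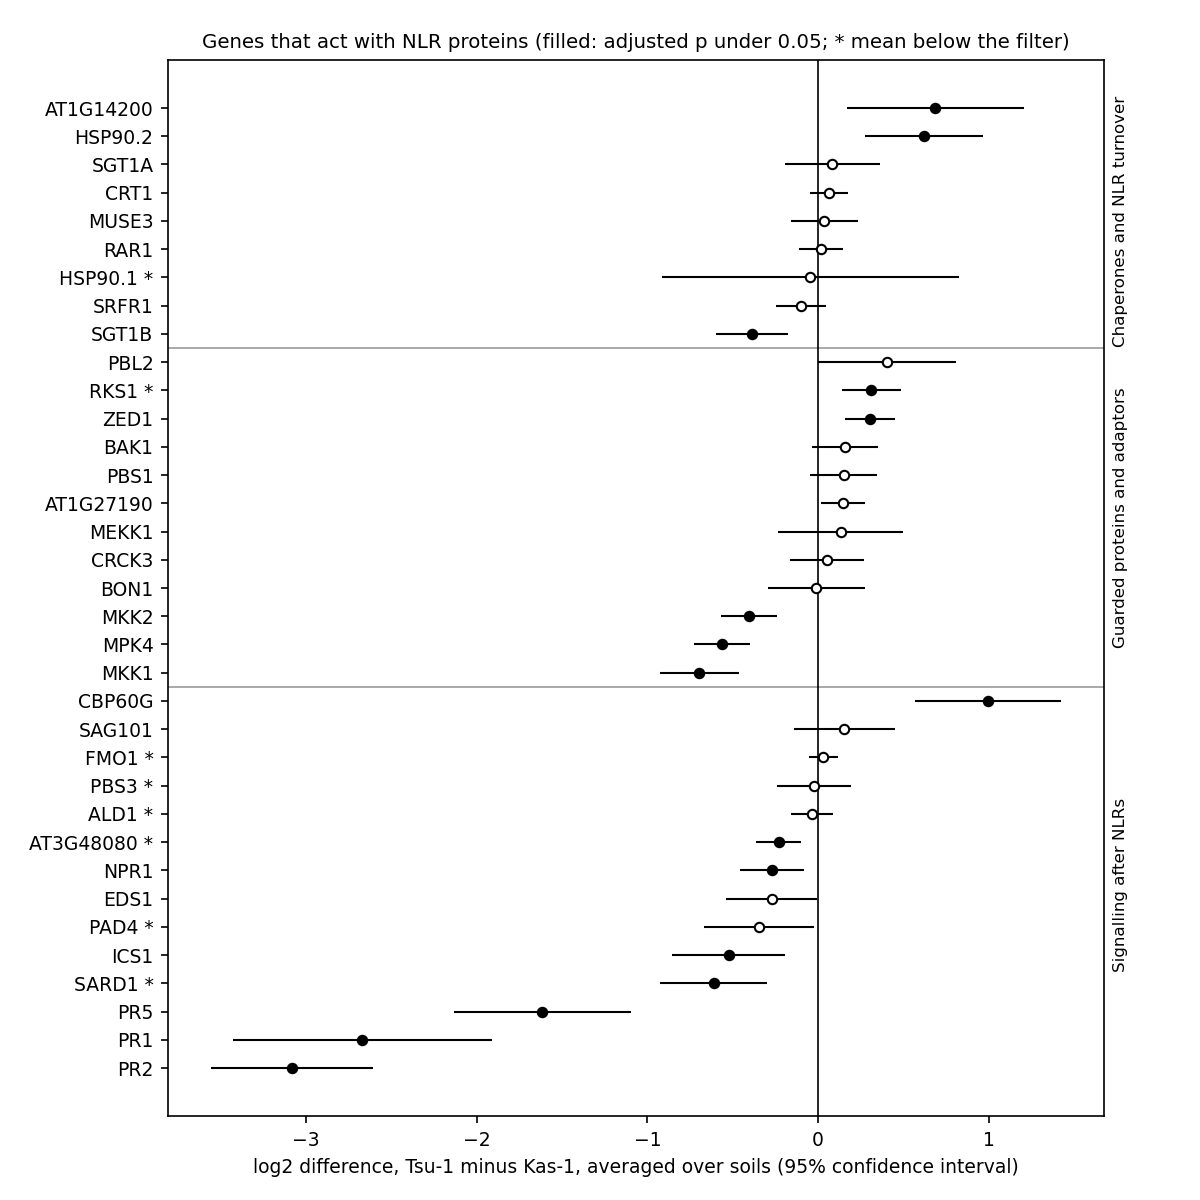
The x axis gives the accession difference (log2, Tsu-1 less Kas-1, mean of both soils) with its 95% confidence interval, and the y axis the genes of the 3 lists that were in the table. Filled points were called by limma, and an asterisk marks genes below the filter, whose values come from the fit without a filter. PR2, PR1 and PR5 lie farthest below 0, at -3.08, -2.67 and -1.62, and MKK1, MPK4 and MKK2 are the called genes below 0 among the guarded proteins.

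The second question was whether the receptor genes responded to mild soil drying. No NLR gene was called for drying averaged over the accessions, where 0.13% of the tested loci were called by limma. None was called for drying in Tsu-1 (0.00812% of loci) or in Kas-1 (0.0731%), and none for the interaction, the difference between the 2 drying responses (0% of loci). At an unadjusted p under 0.05 there were 1 of 13 genes for the average, 2 for Tsu-1, 0 for Kas-1 and 2 for the interaction, against 1151, 591, 1311 and 722 of the 12308 loci. None of the genes in the 3 lists was called for drying or the interaction.

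RPM1 was the gene with an unadjusted p under 0.05 for the averaged drying change. Its signal was 6.02, 6.19 and 6.37 in Kas-1 wet and 6.17, 6.35 and 6.58 in Kas-1 dry, and 6.02, 6.25 and 6.57 in Tsu-1 wet and 6.23, 6.47 and 6.81 in Tsu-1 dry. Wet and dry arrays overlapped in both accessions, and 3 of 6 dry arrays in Kas-1 and 2 of 6 in Tsu-1 exceeded the highest wet array. The change was 0.19 (95% interval 0.04 to 0.34, limma adjusted p = 0.354), with 0.20 in Kas-1 and 0.18 in Tsu-1.

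For the 3 tested genes with the widest accession gaps, the drying intervals were these. ADR1 gave -0.15 in Kas-1 (95% interval -0.43 to 0.14) and -0.13 in Tsu-1 (-0.42 to 0.15). DAR4 gave 0.20 (-0.18 to 0.59) in Kas-1 and -0.14 (-0.52 to 0.25) in Tsu-1. WRR4 gave 0.02 (-0.50 to 0.54) in Kas-1 and -0.39 (-0.91 to 0.12) in Tsu-1. All 6 intervals held 0, and their outermost bounds were -0.91 and 0.59. Without the 4 arrays that stood apart ADR1 was at -0.34 in Kas-1 (95% interval -0.58 to -0.10, which leaves out 0, limma adjusted p = 0.127), and WRR4 at 0.05 in Tsu-1 (-0.36 to 0.47).

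The helper genes ADR1-L1 and ADR1-L2 had the smallest p-values for the interaction among the 13 genes. ADR1-L1 differed between dry and wet soil by 0.27 in Kas-1 and -0.33 in Tsu-1, and ADR1-L2 by 0.32 in Kas-1 and -0.35 in Tsu-1. For both genes the wet median was exceeded by all 6 dry arrays in Kas-1 and by none of 6 in Tsu-1. The interaction was -0.60 for ADR1-L1 (SE 0.22, limma adjusted p = 0.652) and -0.67 for ADR1-L2 (SE 0.24, adjusted p = 0.612), so neither passed the adjusted test. Without the 4 arrays that stood apart the values were -0.27 (adjusted p = 0.369) and -0.32 (adjusted p = 0.306). Without Kas-1 dry 2 alone they were -0.50 and -0.57. ADR1 had an interaction of 0.01 (SE 0.19, adjusted p = 0.999) with all arrays and of 0.34 (SE 0.16, adjusted p = 0.219) without the 4.

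**Figure D4:**
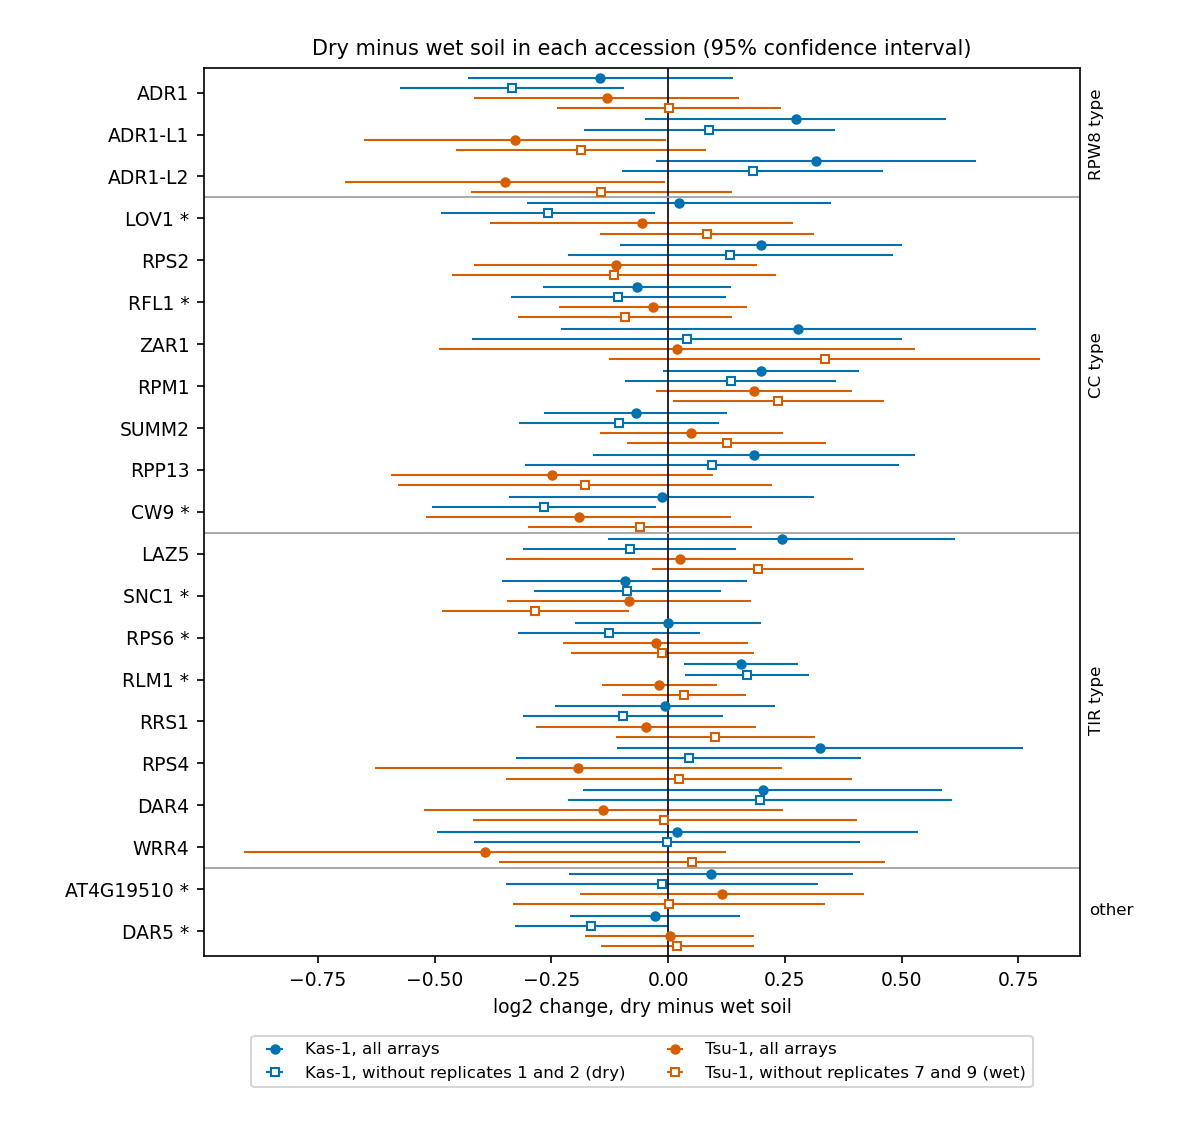
The x axis gives the log2 change from wet to dry soil with its 95% confidence interval, and the y axis the 21 NLR genes, with an asterisk for genes below the filter. Circles use all arrays and open squares leave out the 4 arrays that stood apart. With all arrays ADR1-L1 and ADR1-L2 lie above 0 in Kas-1 (0.27 and 0.32) and below 0 in Tsu-1 (-0.33 and -0.35), and the squares lie closer together (0.09 and 0.18 against -0.19 and -0.14).

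As a group the 13 genes leaned in opposite directions on drying, and the lean moved with a few arrays. Their median change was 0.20 in Kas-1 (10 of 13 positive) and -0.13 in Tsu-1 (4 of 13 positive), against -0.04 and 0.00 for all loci. With any 1 array left out they ran from 0.13 to 0.26 in Kas-1 and from -0.17 to -0.07 in Tsu-1. Without the 4 arrays that stood apart the medians were 0.05 in Kas-1 and 0.02 in Tsu-1, with 8 of 13 genes positive in each. The median interaction was -0.31 with all arrays (2 of 13 positive), -0.24 without Kas-1 dry 2, and 0.05 without the 4 arrays (7 of 13 positive), against 0.04 for all loci.

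Most of the tested NLR genes shared the same high or low arrays. Kas-1 dry 2 was the highest array of its group for 12 of the 13 tested genes and for 23.4% of the loci above the filter. RPP13 was the exception, and there Kas-1 dry 1 was highest. LAZ5, for example, stood at 8.94 on Kas-1 dry 2, against a group median of 7.87, and RPS4 at 8.31 against 7.35. In Tsu-1 wet, array 9 was highest for 7 of the 13 genes (22.4% of loci) and array 7 for 4 (21.8%). Tsu-1 wet 8, which was not among the 4 arrays left out, was lowest for 11 of the 13 genes (16.4% of loci). WRR4 ranged from 8.39 on Tsu-1 wet 8 to 10.4 on Tsu-1 wet 9, and ZAR1 from 8.95 to 10.6 on the same arrays.

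Over the 13 genes, the median deviation from each gene's mean over the 24 arrays, which includes accession differences, was highest on Kas-1 dry 2 (0.62). It was 0.49 on Tsu-1 wet 9 and 0.25 on Tsu-1 wet 7. It was lowest on Tsu-1 wet 8 (-0.31) and Kas-1 wet 10 (-0.295). On the 6 arrays of Tsu-1 dry it stayed between -0.13 and 0.10. On Tsu-1 wet 9, 3 of the 21 genes in the table were at the lowest value of their group (21.9% of the loci above the filter). All of them lay below the filter: SNC1 (5.15), RFL1 (5.39) and AT4G19510 (4.65). The lists of partner genes shared part of the pattern. Kas-1 dry 2 was highest in its group for 6 of 9 chaperone and turnover genes, 7 of 12 guarded proteins and adaptors, and 10 of 14 genes that act after NLRs. The source of the difference between these arrays was not tested.

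**Figure D5:**
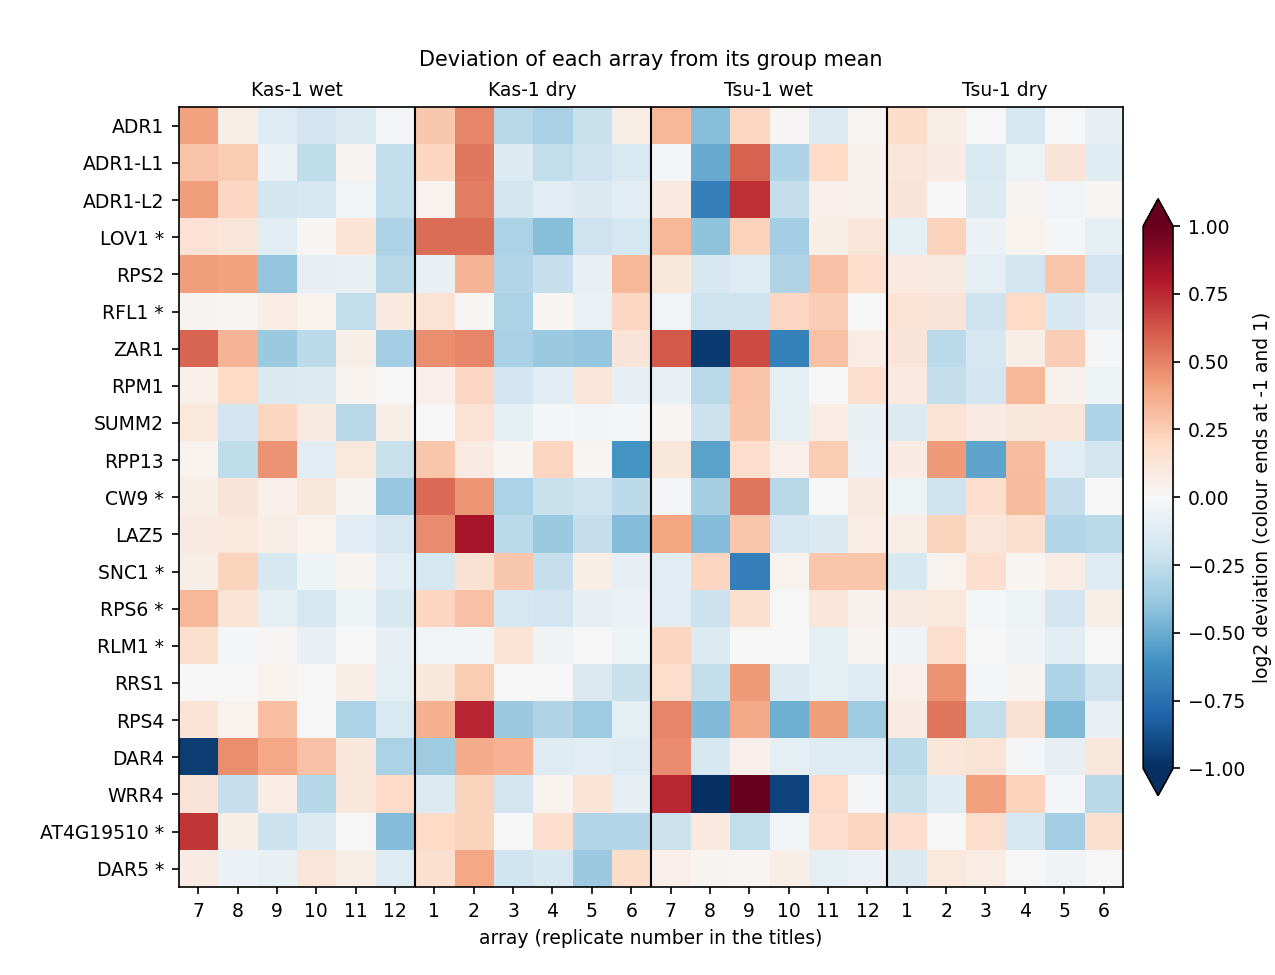
Columns are the 24 arrays by group and title number, rows are the 21 NLR genes, and the colour gives the log2 deviation of an array from the mean of its group, red for higher and blue for lower, with the scale ending at -1 and 1. The column of Kas-1 dry 2 is red for most genes, and in Tsu-1 wet the column of array 8 is mostly blue and that of array 9 mostly red, with SNC1 blue on array 9.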

How the data were processed

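Leaf RNA in RNAlater was prepared with a Qiagen plant kit and labelled as biotinylated cRNA, per the labels' protocols. The authors deposited log2 expression values, 1 per locus and array. The submitters' processing notes name MAS5 with no version or role, so background correction, probe summary and normalisation are not given in the sources used here. That the values are log2 was read from their range, 3.12 to 14.2.

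Loci were matched by identifier to RefSeq genes of TAIR10.1 for names and gene order. No coordinates are printed, because the build of the array annotation is not stated, and no sequences, because no sequence table was used here.

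The 4 group means were fitted in R 4.3.3 with limma 3.58.1 (lmFit, eBayes with an intensity trend) on the loci whose mean exceeded the 40th percentile. The two-sided p of each locus was adjusted over all tested loci of a comparison (Benjamini-Hochberg), with 0.05 as the limit for a call. Every adjusted p given is limma's. The procedure was tested on simulated data with independent noise for each locus and array. Such data hold no shifts shared by many genes of an array. The number of arrays limits the precision.

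Every receptor gene in the table was named. Those called for the averaged accession difference beyond 0.5 (log2) got values per group, other tested genes their differences, and genes below the filter their levels. EDS1, PAD4, SAG101, NDR1, RIN4, SGT1B and RAR1 were always named, and other listed partners where called beyond 1 (log2) or on drying. A count of further NLR loci by their description was not made, because the gene table holds no descriptions. The receptor genes, the lists and the rules were chosen with earlier results of these data known. No set tests were run on the lists.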

Additional observations from a re-analysis of the deposited data

Results flagged for a closer look

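Each of the 21 receptor genes was looked at in each group of 6 arrays for an array far from the others, by the gap to the nearest array as a share of the group's range (Dixon's test at the 95% level). Of the 84 groups, 8 held such an array, where chance gives about 1 in 20. Of the helper genes, ADR1-L2 stood at 9.49 on Kas-1 dry 2, with the other arrays of the group between 8.80 and 9.02. SUMM2 also stood high on Kas-1 dry 2, at 6.63 against 6.39 to 6.48. DAR4 stood at 8.55 on Tsu-1 wet 7, against 7.90 to 8.13, and RPP13 stood low on Kas-1 dry 6, at 6.92 against 7.53 to 7.79.

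The other 4 arrays concern genes below the filter. CW9 stood at 5.22 on Kas-1 wet 12, against 5.63 to 5.73, and RFL1 at 5.49 on Kas-1 wet 11, against 5.75 to 5.84. RLM1 stood at 5.29 on Kas-1 dry 3, against 5.10 to 5.16, and at 5.16 on Kas-1 wet 7, against 4.92 to 5.004.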

How the results depend on the processing

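The 8 receptor genes called for the averaged accession difference stayed called, in the same direction, in every alternative in which they were tested (34 or 35 each). The count moved with the filter by construction, since 7 of the genes were tested with a filter at the 60th percentile and 21 with none. With the stricter filter it was 4 averaged over the soils, 3 in wet and 2 in dry soil, and with no filter 13, 9 and 10. With 1 array left out at a time it was 8 to 9 averaged over the soils, 5 to 6 in wet soil, 5 to 6 in dry soil, and 0 for every drying comparison and the interaction.

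ZAR1, close to 0 in the reported fit, was -0.035 with Kas-1 dry 4 and 5 averaged, -0.036 without the 4 arrays that stood apart, and -0.063 to 0.098 with 1 array left out. The median drying change of the 13 genes averaged over the accessions was -0.009 in the reported fit, against -0.018 for all loci. It was 0.007 with quantile normalisation, 0.007 with median centring, 0.019 without the 4 arrays, and -0.03 to 0.032 with 1 array left out. Without the 4 arrays the median was 0.023 in Tsu-1 and 0.053 for the interaction. The cause of these sign changes was not tested. In dry soil SUMM2 lost its call with arrays of numbers 3 apart averaged, and without Kas-1 dry 3 or Tsu-1 dry 2, 3 or 4.

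Whether equal title numbers pair the samples was not settled by the arrays. Of 12 same-numbered pairs, 4 had correlated deviations over 0.1 (range -0.397 to 0.555). Of the 12 Kas-1 arrays 2, dry 2 and wet 7, correlated best with their own number. With the replicate block 9 genes were called averaged over the soils, 5 in wet and 6 in dry soil, and 0 for the interaction, with LAZ5 (adjusted p = 0.0481) as the added gene. Signals near the filter limit the genes of low level, for which a difference can lie within the background of the array.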
